A study of Homo sapiens with 12 samples.

Results

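The genes described are MET, HMGA2, NUMB, TSPAN3, IKZF2 and LIN28A, whose mRNAs have been reported as targets of the Musashi proteins in pancreatic cancer, neural or blood stem cells. They were chosen by symbol, 6 of the 24528 genes in the count table. Of the 6, 5 had counts and passed the low-count filter, as did 15021 genes in all, and NUMB was listed at 0 throughout. RNA was sequenced from MIA PaCa-2, a long-established human pancreatic cancer cell line. All cells carried lentivirus for 72 hours and were then sorted on the viral fluorescent tags. The 4 groups of 3 libraries had received a scrambled control short hairpin RNA (shRNA), an shRNA against Musashi1 (virus with GFP), an shRNA against Musashi2 (virus with Tomato Red), or both shRNAs, the last being the double-positive cells. They are called control, Msi1 knockdown, Msi2 knockdown and double knockdown. How the control cells were tagged and gated, and how many hairpins were used per gene, the sources used here do not say.

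Musashi-1 and Musashi-2, encoded by MSI1 and MSI2, are related RNA-binding proteins of stem and progenitor cells. Each has a pair of RNA recognition motifs that bind short uridine-rich sites around a UAG core, mostly in 3′ untranslated regions, and binding can repress or promote translation and alter mRNA stability. A change in translation alone would leave the RNA level as it was, so RNA counts see only part of what a Musashi protein can do to a target. MET encodes the receptor for hepatocyte growth factor. NUMB encodes an endocytic adaptor that restrains Notch signalling, TSPAN3 a four-span membrane protein of the tetraspanin family, IKZF2 the zinc finger factor Helios of the Ikaros family. LIN28A encodes an RNA-binding protein that blocks maturation of the let-7 microRNAs, and HMGA2 an architectural chromatin protein whose mRNA let-7 represses.

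The core recognised by Musashi proteins was located in the reference 3′ untranslated regions of the members, because it is the feature by which these mRNAs are thought to be bound. For each gene the 30-base window with the most copies is printed, 5′ to 3′ on the transcript strand as DNA letters, with TAG in capitals. Sequences are from GENCODE 29 (GRCh38), the principal coding isoform with the longest 3′ untranslated region, and not from these libraries. TAG was searched on the transcript strand only, and copies of it cannot overlap each other.
MET, chr7:116796516-116796545, plus strand: ccagaacaggccactcattTAGaattcTAG
HMGA2, chr12:65963768-65963797, plus strand: cccactccctgTAGtgaatcctctgttTAG
NUMB, chr14:73276368-73276397, minus strand: attccTAGagaaaagctgccttgcaatTAG
TSPAN3, chr15:77046087-77046116, minus strand: acccatgTAGacTAGcaaaaTAGtatgTAG
IKZF2, chr2:213005854-213005883, minus strand: tTAGtaTAGaattccccttacatggtaTAG
LIN28A, chr1:26427874-26427903, plus strand: ctacagTAGtgattaaTAGtgtcatggTAG

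The window of TSPAN3 held 4 copies, those of IKZF2 and LIN28A 3 each, and those of MET, HMGA2 and NUMB 2 each. Over whole 3′ untranslated regions, MET had the densest cores, 35 copies in 2262 bases (15.5 per kb), and 15.3% of genes had more per kb. IKZF2 had 14.5 per kb, TSPAN3 13.3, NUMB 12.4, LIN28A 11.3 and HMGA2 11 per kb. The median over 16846 genes with a 3′ untranslated region of at least 200 bases was 10.9 per kb (quartiles 7.39 and 14), and 97.5% of these genes held at least 1 copy. All 6 members thus lay above the median, HMGA2 and LIN28A close to it, and 4 of them (NUMB, TSPAN3, HMGA2 and LIN28A) below the upper quartile. Genes with more per kb were 21.1% for IKZF2, 30.8% for TSPAN3, 37.7% for NUMB, 46.7% for LIN28A and 49.4% for HMGA2. The core is common, and a copy is a match of letters, not a measured binding site.

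LIN28A and HMGA2 are also linked through let-7. The mature let-7a sequence (RefSeq, GRCh38.p14) is printed with its seed, bases 2 to 8, in capitals, beside the most 5′ complementary match, CTACCTC, in the 3′ untranslated region of each gene.
let-7a: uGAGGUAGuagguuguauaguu
HMGA2, chr12:65963301-65963330, plus strand: aacgttcgatttCTACCTCagcagcagttg
LIN28A, chr1:26427351-26427380, plus strand: cagcctattgaaCTACCTCatttttgccaa

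HMGA2 had 4 such matches, a number reached by 0.0712% of genes, and LIN28A had 1. The other 4 members had 0, and 9.86% of genes had at least 1. MicroRNAs were not measured in these libraries.

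Library totals in 1e6 estimated counts were 10.9 to 35 (control), 26.8 to 38.9 (Msi1), 39.7 to 53 (Msi2) and 39.9 to 56.1 (double). Levels are counts per 1e6 of the scaled library total (CPM), given per library or as mean ± SD (n = 3). Changes are log2 values ± standard error from 1 edgeR model over all 12 libraries, and adjusted p-values cover all 15021 genes. Nothing states that replicates were separate cultures, so p-values measure the spread between these libraries, which may be technical. A trend shared by many genes separated the double-knockdown libraries (scores -1.54 to -1.06) from the other 9 (-0.39 to 1.38), and values with this trend as a covariate are given where they alter a member's call. The scores include group differences, so in these values the trend and the double knockdown cannot be told apart. Keratins KRT8 and KRT18 stood at 1190 and 1180 CPM in control and vimentin (VIM) at 5870 CPM, while the epithelial EPCAM was at 0.318 CPM. Of the markers of other cells, the 4 acinar genes were at 0 in control. Summed levels of 5 fibroblast, 4 endothelial and 6 neural markers were higher in every knockdown library than in control (202 to 257 against 264 to 416 CPM, 7.15 to 8.09 against 12.9 to 34.3 CPM, and 10.2 to 14.4 against 15.2 to 31 CPM). Each sum was carried by a single gene. COL3A1 stood at 226 CPM in control and at 385 (Msi1), 369 (Msi2) and 292 CPM (double), CDH5 at 6.42 CPM against 30.5, 12.4 and 20.7 CPM, and SYP at 10.2 CPM against 27.9, 15.3 and 18.8 CPM. Other markers went the other way. In the double knockdown 3 of 5 fibroblast, 3 of 4 endothelial and 5 of 6 neural markers had a mean below control, among them DCN (1.38 to 0.458 CPM, log2 -1.53, edgeR adjusted p = 0.000116). Their part in the members' results was not tested.

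The shRNAs lowered their targets. MSI1 remained at 40.6% of its control level in the Msi1 knockdown and 37.7% in the double knockdown, and MSI2 at 18.1% in the Msi2 knockdown and 14.2% in the double knockdown. Each shRNA also went with a change of the other transcript. MSI2 stood at 65.3% of control with the Msi1 shRNA (log2 -0.61 ± 0.08, edgeR adjusted p = 6.82e-06), and MSI1 at 135% in the Msi2 knockdown (0.41 ± 0.13, adjusted p = 0.0244), a call lost in 4 of 14 alternatives (adjusted p up to 0.251).

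MET, IKZF2, TSPAN3 and LIN28A were lower in all 3 knockdowns than in control, and HMGA2 in the double knockdown. Not all of these calls were equally firm. The HMGA2 call was made in 7 of 13 alternatives, and the Msi2 calls on MET and TSPAN3 in 10 and 11 of 14. Of the 5 tested members 4 were called lower with the Msi1 shRNA, 4 with the Msi2 shRNA and 5 with both, and 0 were called higher in any of the 3. Over all tested genes, 20.9%, 13.6% and 25.3% were called lower in these comparisons. In each comparison 4 members had every knockdown library below every control library, where 24.4%, 17.9% and 28.9% of all genes did. The members' median log2 changes were -0.52, -0.48 and -0.70, beside 0.00, 0.00 and -0.02 over all genes. A call of lower in all 3 knockdowns was made for 4 of 5 tested members and for 5.08% of all tested genes. The members were chosen with earlier results of these data known, so these shares give no independent support. The members were not tested as a set. The 3 comparisons share the control libraries, so they are not independent of one another. In sorted populations, fewer cells with a transcript and less of it per cell cannot be told apart.

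**Figure D1:**
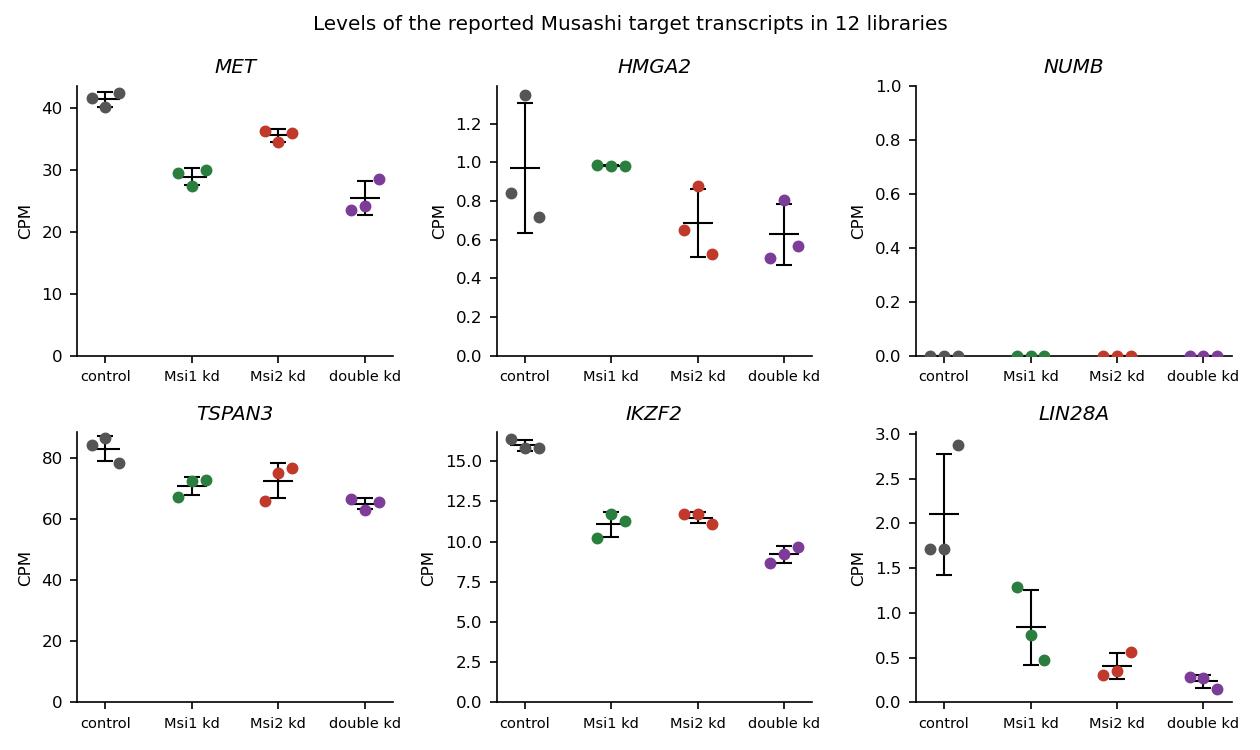
CPM of each gene in each library (points, replicates 1 to 3 from left to right) with the mean and SD of each group (n = 3); each panel has its own linear axis from 0, and kd stands for knockdown. All knockdown libraries lie below all control libraries for MET, TSPAN3, IKZF2 and LIN28A, HMGA2 overlaps between control and each knockdown, and NUMB is at 0 in all 12 libraries.

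MET is the receptor tyrosine kinase among the members. Its levels were 41.7, 40.2 and 42.5 CPM in control replicates 1, 2 and 3, and 29.5, 27.4 and 30 CPM in the Msi1 knockdown. Msi2-knockdown libraries stood at 36.3, 34.5 and 36.1 CPM and double-knockdown libraries at 23.6, 24.2 and 28.6 CPM. Every library of each knockdown was below every control library, and the Msi2 knockdown lay between control and the 2 groups with the Msi1 shRNA. MET fell 1.43-fold with the Msi1 shRNA (log2 -0.52 ± 0.07, edgeR adjusted p = 1.36e-05) and 1.63-fold in the double knockdown (-0.70 ± 0.07, adjusted p = 2.58e-07). Its smaller change in the Msi2 knockdown, -0.22 ± 0.07 (adjusted p = 0.0267), did not pass when any of 4 libraries was left out: the control library 1 (adjusted p = 0.0858) or 3 (0.0684), or the Msi2-knockdown library 1 (0.0604) or 2 (0.0707). With the estimated counts of every library thinned, in 1 random draw, to the total of the smallest library, the MET change was -0.37 and was called.

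IKZF2, the Helios gene, had the smallest relative spread in control of the 5 tested members (SD 2.17% of the mean). Control replicates 1, 2 and 3 stood at 16.4, 15.8 and 15.8 CPM, the Msi1 knockdown at 10.2, 11.7 and 11.3 CPM, the Msi2 knockdown at 11.7, 11.7 and 11.1 CPM and the double knockdown at 8.65, 9.26 and 9.69 CPM. The single knockdowns overlapped each other, lay wholly below control and lay wholly above the double knockdown. IKZF2 fell by 0.54 ± 0.08 on the log2 scale in the Msi1 knockdown (edgeR adjusted p = 2.3e-05), by 0.48 ± 0.08 in the Msi2 knockdown (adjusted p = 9.45e-05) and by 0.81 ± 0.08 in the double knockdown (adjusted p = 1.43e-07). These 3 calls were made in all 14 alternatives each.

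TSPAN3, the tetraspanin, was the most abundant member and changed least among those called in all 3 knockdowns. It stood at 84.3, 86.6 and 78.6 CPM in control, 67.4, 72.5 and 72.9 CPM with the Msi1 shRNA, 66.1, 75.3 and 76.7 CPM in the Msi2 knockdown and 66.6, 63.1 and 65.8 CPM in the double knockdown. No knockdown library reached the lowest control library, but Msi2-knockdown replicate 3 came close to it. The log2 changes were -0.23 ± 0.07 (edgeR adjusted p = 0.00806), -0.20 ± 0.07 (adjusted p = 0.0277) and -0.36 ± 0.07 (adjusted p = 0.000171) in the Msi1, Msi2 and double knockdown. The Msi2 call on TSPAN3 was lost when the control library 1 (adjusted p = 0.0813) or 2 (0.0822) or the Msi2-knockdown library 1 (log2 -0.13, 0.161) was left out. Changes below that of TSPAN3 were found for 23.3%, 23.5% and 23.3% of all genes. An annotated noncoding gene on the opposite strand overlaps an exon of TSPAN3.

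HMGA2, the let-7-regulated chromatin protein gene, was near the limit of detection, with 8 to 47 counts per library. Control replicates 1, 2 and 3 stood at 0.841, 1.35 and 0.719 CPM. The Msi1 knockdown stood at 0.987, 0.982 and 0.98 CPM, the Msi2 knockdown at 0.652, 0.877 and 0.528 CPM and the double knockdown at 0.508, 0.806 and 0.57 CPM. Double-knockdown replicate 2 was above control replicate 3, so these groups overlapped. The log2 changes were -0.04 ± 0.27 in the Msi1 knockdown (edgeR adjusted p = 0.917; 95% interval -0.61 to 0.52), -0.55 ± 0.27 in the Msi2 knockdown (adjusted p = 0.139; -1.13 to 0.02) and -0.70 ± 0.28 in the double knockdown (adjusted p = 0.0437). The call on HMGA2 in the double knockdown was made in 7 of 13 alternatives. It was lost without control replicate 2 (-0.38, adjusted p = 0.359), double-knockdown replicate 1 (-0.54, 0.167) or replicate 3 (-0.65, 0.0935), by DESeq2 (0.102), in thinned libraries (0.243) and with the library trend in the model (-0.18, 0.734). An annotated antisense gene overlaps an exon of HMGA2 and whether strand was kept is not known.

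LIN28A, the let-7 antagonist of embryonic cells, showed the largest differences and low counts. Control replicates 1, 2 and 3 had 61, 52 and 32 counts, or 1.71, 1.71 and 2.88 CPM. The Msi1 knockdown had 47, 30 and 13 counts (1.29, 0.755 and 0.472 CPM), the Msi2 knockdown 12, 19 and 29 counts (0.301, 0.354 and 0.567 CPM) and the double knockdown 15, 12 and 6 counts (0.282, 0.276 and 0.155 CPM). All 9 knockdown libraries lay below the control libraries, and relative to its mean the Msi1 knockdown spread widest (SD 49.5% of the mean, against 32.1% in control, 34.5% in the Msi2 knockdown and 30.1% with both). LIN28A fell 2.28-fold with the Msi1 shRNA (log2 -1.19 ± 0.31, edgeR adjusted p = 0.00446), 4.72-fold in the Msi2 knockdown (-2.24 ± 0.33, adjusted p = 3.63e-05) and 7.98-fold in the double knockdown (-3.00 ± 0.36, adjusted p = 1.53e-06). Of all tested genes, 0.839%, 0.166% and 0.0533% had lower changes. The 3 calls were made in all 14 alternatives each, but their size varied. With the library trend in the model the LIN28A changes were -0.71 (adjusted p = 0.0373), -2.10 and -3.84, and in thinned libraries -1.70, -3.02 and -3.54.

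LIN28A was set beside other genes of pluripotent stem cells. A list of 12 such genes (POU5F1, NANOG, SOX2, LIN28B, L1TD1, DPPA2, DPPA4, ZFP42, TDGF1, GDF3, UTF1 and FGF4) was chosen after values were seen and gets no test. Its summed level was 5.21, 7.36 and 5.84 CPM in control replicates 1, 2 and 3, and 5.51, 3.98 and 2.54 CPM in the Msi1 knockdown. It was 2.43, 2.69 and 2.13 CPM in the Msi2 knockdown and 2.67, 2.3 and 2.44 CPM in the double knockdown. The order of the Msi1-knockdown libraries was the same as for LIN28A, replicate 1 highest and replicate 3 lowest. In the other groups the orders differed. Control replicate 3 was highest for LIN28A and control replicate 2 for the sum. Msi2-knockdown replicate 3 was highest for LIN28A and lowest for the sum. Double-knockdown replicate 1 was highest for both, but replicate 3 was lowest for LIN28A and replicate 2 for the sum. Msi1-knockdown replicate 1 lay within the control range of the sum, while its LIN28A level lay below all control libraries. Of the 12 genes, 9 had a lower mean than control with the Msi1 shRNA, 9 with the Msi2 shRNA and 10 with both, and for 3, 7 and 7 of the 12 every library was below every control library. Over all tested genes the last share was 24.4%, 17.9% and 28.9%, and some of the 12 did not pass the low-count filter. LIN28B, the close relative of LIN28A, had 3 to 6 counts per control library and 0 or 1 in the double and 0 in the Msi2 knockdown. It had 4, 0 and 1 counts in Msi1-knockdown replicates 1, 2 and 3, and it did not pass the low-count filter. TDGF1 went from 0.852 CPM in control to 0.113 CPM in the double knockdown and L1TD1 from 0.698 to 0.0933 CPM. UTF1 and FGF4 were at 0 in control, and NANOG stood at 0.622 CPM in control, 0.832 CPM in the Msi1 knockdown, 0.699 CPM with the Msi2 shRNA and 0.467 CPM with both, with no call. The part of any such transcripts from other cells or libraries in the LIN28A result was not tested.

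**Figure D2:**
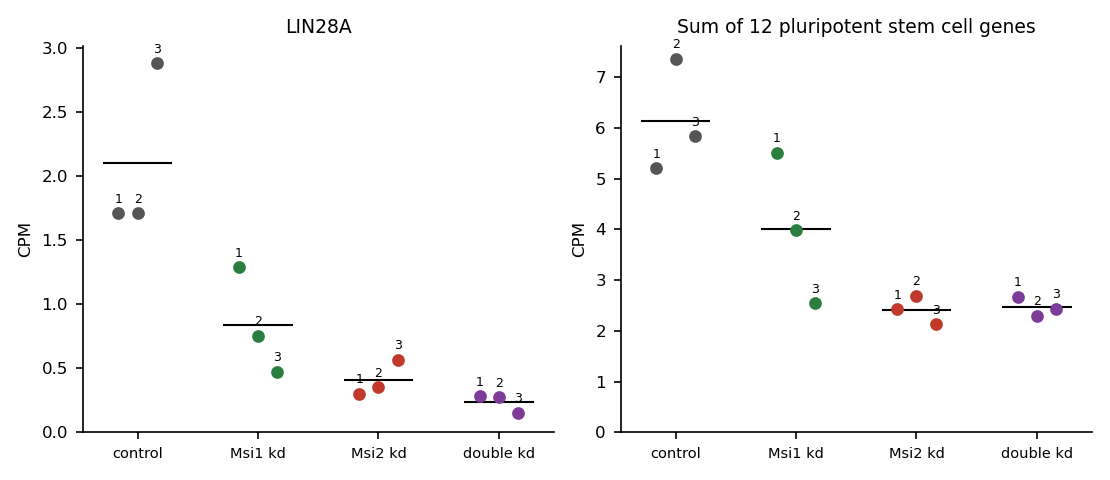
CPM of LIN28A (left) and summed CPM of 12 other pluripotent stem cell genes (right) in each library; points carry the replicate number, lines are group means (n = 3), axes are linear from 0, and kd stands for knockdown. Control libraries lie between 1.71 and 2.88 CPM for LIN28A and between 5.21 and 7.36 CPM for the sum, Msi1-knockdown replicate 1 lies within the control range of the sum (5.51 CPM), and the Msi2-knockdown and double-knockdown libraries lie below all control libraries in both panels.

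NUMB, the Notch antagonist, was listed at 0 counts in all 12 libraries, so no level, change or test can be given. Genes that every cell uses were listed at 0 as well, among them RPS26, a ribosomal protein gene, NDUFA3, of respiratory complex I, and POLR3E, of RNA polymerase III, all named after their values were seen. The 0 of NUMB therefore does not show that the cells lack the transcript. Its paralog NUMBL, which shares the phosphotyrosine-binding domain, was well measured, at 30.1 ± 1.7 CPM in control and 42.1 ± 2.4 CPM in the double knockdown. NUMBL rose by 0.47 ± 0.07 on the log2 scale in the double knockdown (edgeR adjusted p = 2.17e-05) and by 0.27 ± 0.07 in the Msi2 knockdown (adjusted p = 0.00675). For NUMBL the Msi1 knockdown gave 0.22 ± 0.07 (adjusted p = 0.0212), which did not pass without control replicate 3 (0.0702), without Msi1-knockdown replicate 2 (0.0961) or in thinned libraries (0.0503).

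**Figure D3:**
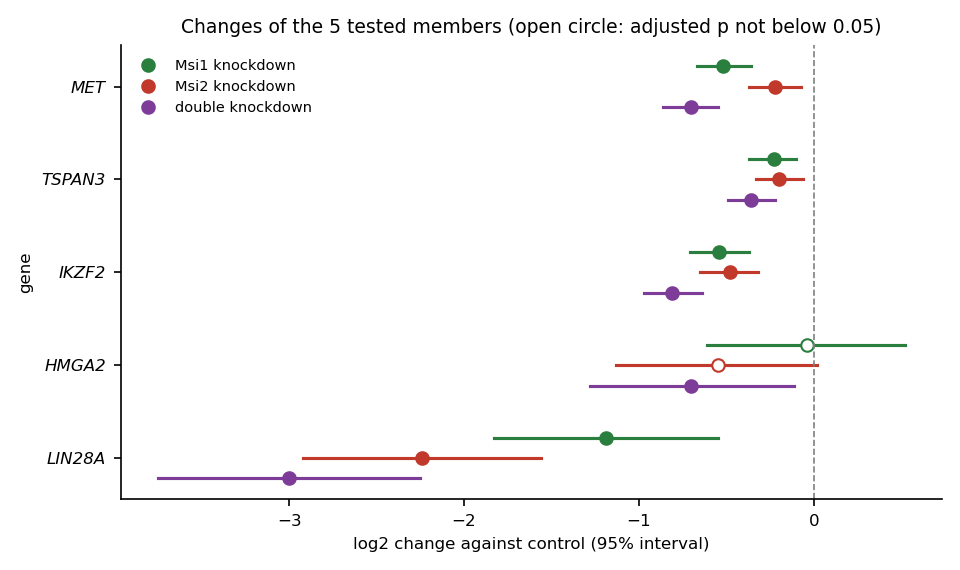
Log2 change against control of the 5 tested members in each knockdown, as points with 95% intervals from the edgeR model (horizontal axis, log2 scale; the dashed line marks no change); filled points passed an adjusted p of 0.05. All points lie left of 0, from -0.04 for HMGA2 in the Msi1 knockdown to -3.00 for LIN28A in the double knockdown.

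The next comparisons asked whether the shRNAs differed from each other. Between the Msi2 and the Msi1 knockdown 2 of the 5 members differed, where 41.1% of all genes did. MET was higher in the Msi2 than in the Msi1 knockdown, by 0.30 ± 0.07 on the log2 scale (edgeR adjusted p = 0.00208), with no overlap between the libraries, a call lost with thinned libraries (0.16, adjusted p = 0.153). LIN28A was lower in the Msi2 than in the Msi1 knockdown (-1.05 ± 0.35, adjusted p = 0.0201), and its libraries overlapped. That LIN28A call was lost without Msi1 knockdown replicate 1 (-0.61, adjusted p = 0.183) or Msi2 knockdown replicate 1 (-0.91, adjusted p = 0.0805) and with thinned libraries (-1.32, adjusted p = 0.108). No difference was called for IKZF2 (0.06, 95% interval -0.11 to 0.22), TSPAN3 (0.04, -0.10 to 0.17) or HMGA2 (-0.51, -1.05 to 0.03).

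Adding the Msi2 shRNA to the Msi1 shRNA went with lower levels of 4 of 5 members, where 26.2% of genes were lower. These were LIN28A (log2 -1.81 ± 0.38, edgeR adjusted p = 0.000662), IKZF2 (-0.27 ± 0.08, adjusted p = 0.00798), MET (-0.19 ± 0.07, adjusted p = 0.034) and HMGA2 (-0.65 ± 0.27, adjusted p = 0.0432). With the library trend in the model LIN28A alone kept its call, at -3.13, while IKZF2 was at -0.09 (adjusted p = 0.788), MET at -0.24 (0.255) and HMGA2 at 0.15 (0.919). The MET call was also lost when the Msi1-knockdown library 1 (adjusted p = 0.0713) or 3 (0.108), or the double-knockdown library 1 (0.176) or 2 (0.0999), was left out. The HMGA2 call held in 5 of 13 alternatives.

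Adding the Msi1 shRNA to the Msi2 shRNA went with lower levels of 2 of 5 members, where 22.5% of genes were lower. MET fell by 0.49 ± 0.07 on the log2 scale (edgeR adjusted p = 2.95e-05) in this comparison, in all 14 alternatives. IKZF2 fell by 0.32 ± 0.08 (adjusted p = 0.0022), or by 0.19 (adjusted p = 0.216) with the library trend in the model. TSPAN3 was at -0.16 ± 0.06 (adjusted p = 0.0511), LIN28A at -0.76 ± 0.41 (adjusted p = 0.141) and HMGA2 at -0.14 ± 0.27 (adjusted p = 0.69). Of these, TSPAN3 passed with the replicate block (adjusted p = 0.0423), under a stricter filter (0.0284) and without Msi2-knockdown replicate 1 (0.0156), and LIN28A with the library trend in the model (-1.74, adjusted p = 0.00575).

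The change in the double knockdown lay near the sum of the single changes for MET, -0.70 against -0.73 on the log2 scale, a difference of 0.03 (95% interval -0.18 to 0.24). For TSPAN3 it was -0.36 against -0.43 (difference 0.08, -0.12 to 0.27), for IKZF2 -0.81 against -1.03 (0.22, -0.01 to 0.45) and for HMGA2 -0.70 against -0.60 (-0.10, -0.89 to 0.70). LIN28A stood at -3.00 against -3.43 (0.43, -0.68 to 1.54). By edgeR 0 of 5 members departed from additivity after adjustment, 0 at an unadjusted p below 0.05, and 0 by DESeq2, while 40.3% of all genes were called by edgeR. The intervals of HMGA2 and LIN28A are wide, so a sizeable departure of either would have been missed.

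**Figure D4:**
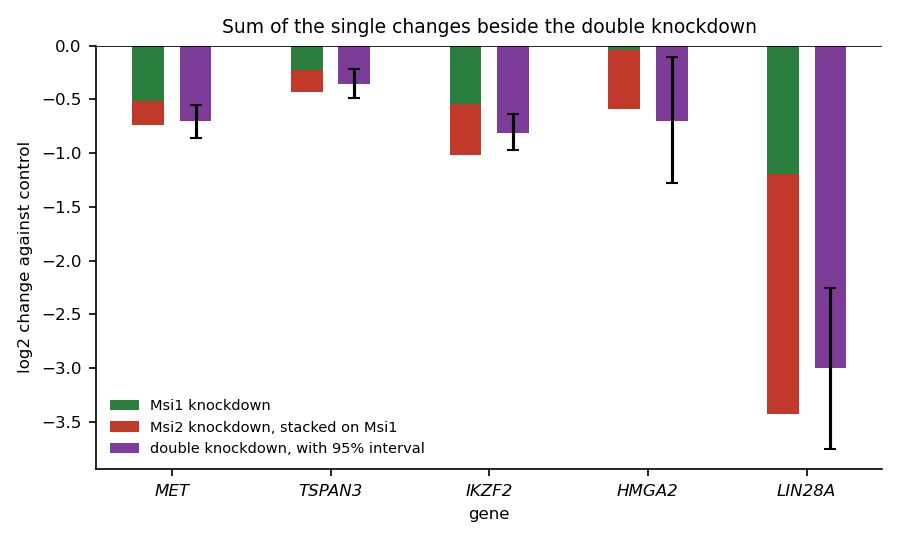
Log2 change against control of each tested member (vertical axis from 0) in the Msi1 knockdown with that in the Msi2 knockdown stacked on it, beside the change in the double knockdown with its 95% interval. The stacked and double bars of MET end at -0.73 and -0.70, and the stacked bars of IKZF2 (-1.03) and LIN28A (-3.43) reach further than their double bars (-0.81 and -3.00).

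Levels were compared between members per kilobase of the longest coding transcript in GENCODE 29, since longer transcripts collect more counts. In control cells TSPAN3 stood at 12.9 ± 0.64 CPM per kb, MET at 6.26 ± 0.18, IKZF2 at 1.71 ± 0.037, LIN28A at 0.523 ± 0.17 and HMGA2 at 0.12 ± 0.041 CPM per kb (mean ± SD, n = 3). No neighbours in this order overlapped between libraries. In the double knockdown LIN28A stood at 0.0594 ± 0.018 and HMGA2 at 0.0776 ± 0.019 CPM per kb, with overlapping ranges. With median transcript lengths the control order was the same for all 5, but LIN28A (0.562 CPM per kb) and HMGA2 (0.541) were then nearly level.

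Across the 12 libraries the log2 levels of MET and IKZF2 had a Pearson's r of 0.90, TSPAN3 and IKZF2 0.88, IKZF2 and LIN28A 0.81 and MET and TSPAN3 0.80. HMGA2 had lower values with the other members, 0.22 to 0.50. The points share the 4 groups and the libraries' depth, so these values mix differences between groups with those within groups. Of 9430 other genes of at least 10 CPM, IFT80 (r = 0.991), SYNJ2BP (0.989) and NIPA1 (0.977) were closest to IKZF2, PGPEP1 (0.98), BEND7 (0.974) and VPS50 (0.973) to MET, and FUT8 (0.976), NEU1 (0.949) and PIGH (0.931) to TSPAN3. For LIN28A they were CUL4B (0.927), KCTD9 (0.924) and DHX40 (0.92), and for HMGA2 CDCA7 (0.916), C21orf58 (0.913) and N4BP2L2 (0.908). NIPA1 had log2 changes of -0.72 (Msi1), -0.79 (Msi2) and -1.26 (double), larger than those of IKZF2. CDCA7, closest to HMGA2, had changes near 0, at 0.06 (Msi1), -0.06 (Msi2) and -0.06 (double).

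Genes that work with the members went both ways. Of all tested genes, 20.9%, 13.6% and 25.3% were called lower in the Msi1, Msi2 and double knockdown, and 18.5%, 16.7% and 26.6% higher. These shares stand beside the counts of each list from here on. In the MET receptor pathway 10 of 33 tested genes besides MET were lower and 4 higher in the Msi1 knockdown, 4 and 6 in the Msi2 knockdown and 14 and 12 in the double knockdown, with medians of -0.15, 0.02 and 0.08. RAPGEF1, a Rap exchange factor recruited through CRK, fell by 1.41 ± 0.07 on the log2 scale in the Msi1 knockdown, from 84.3 ± 6.0 to 31.7 ± 0.65 CPM (edgeR adjusted p = 8.96e-12). GAB1, the docking adaptor of MET, fell from 7.8 ± 1.2 to 4.15 ± 0.39 CPM (-0.88 ± 0.12, adjusted p = 9.9e-06). HGF, the ligand, was below 0.5 CPM in all groups, at 0.16 CPM in control and 0.488 CPM in the Msi1 knockdown (1.88 ± 0.48, adjusted p = 0.00398).

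Of the genes around LIN28, let-7 and HMGA, 13 of 30 tested besides the members were higher and 7 lower in the Msi1 knockdown, 15 and 2 in the Msi2 knockdown and 15 and 3 in the double knockdown (medians 0.08, 0.20 and 0.19). Called higher were 18.5%, 16.7% and 26.6% of all genes. HMGA1, the paralog of HMGA2, stood at 552 ± 13 CPM in control and 988 ± 50 CPM in the double knockdown, a rise of 0.84 ± 0.08 (edgeR adjusted p = 6.67e-08), the opposite sign of HMGA2. TRIM71, itself a let-7 target, rose from 2.63 ± 0.20 to 6.06 ± 0.80 CPM (1.18 ± 0.12, adjusted p = 3.3e-07). AGO1, an Argonaute protein that carries microRNAs, fell by 0.55 ± 0.07 in the double knockdown (adjusted p = 1.61e-06). AGO2, another Argonaute gene on the list, went the other way. It rose by 0.36 ± 0.07 in the Msi1, 0.62 ± 0.07 in the Msi2 and 0.42 ± 0.07 in the double knockdown (largest edgeR adjusted p = 0.000317).

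Among NUMB partners and Notch receptors 14 of 34 tested genes were lower and 5 higher in the Msi1 knockdown, 4 and 8 in the Msi2 knockdown and 9 and 8 in the double knockdown (medians -0.10, 0.00 and 0.01). The polarity genes PARD6A, PRKCZ and PARD3, whose proteins form a complex, fell in the Msi1 knockdown by 0.88 ± 0.14, 0.69 ± 0.08 and 0.67 ± 0.07 on the log2 scale (largest edgeR adjusted p = 4.08e-05). Their relatives PARD6B and PRKCI, on the same list, were at 0.28 ± 0.12 (adjusted p = 0.0733) and 0.02 ± 0.06 (adjusted p = 0.87) there. PARD3 was called higher in the Msi2 knockdown (0.20 ± 0.06, adjusted p = 0.0203), a call lost in 5 of 14 alternatives.

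The tetraspanins besides TSPAN3 went both ways. Of 23 tested, 6 were higher and 2 lower in the Msi1 knockdown, 7 and 1 in the Msi2 knockdown and 4 and 5 in the double knockdown (medians 0.18, 0.23 and -0.10). TSPAN9 rose from 33.4 ± 1.8 to 74.3 ± 4.3 CPM with the Msi1 shRNA (log2 1.16 ± 0.07, edgeR adjusted p = 1.34e-10), and to 58.4 ± 2.4 CPM in the double knockdown. TSPAN1 and CD82 fell in the double knockdown by 0.77 ± 0.08 (adjusted p = 3.99e-07) and 0.74 ± 0.09 (adjusted p = 1.4e-06) on the log2 scale.

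Of 21 tested genes of the Ikaros family and its chromatin partners besides IKZF2, 6 were lower and 2 higher in the Msi1 knockdown, 3 and 4 in the Msi2 knockdown and 2 and 3 in the double knockdown (medians -0.08, 0.06 and 0.05). CTBP2, a corepressor, fell by 0.52 ± 0.07 on the log2 scale in the Msi1 knockdown (edgeR adjusted p = 3.58e-06) and stood at -0.08 ± 0.06 (adjusted p = 0.296) in the double knockdown. IKZF4, a paralog, was at -0.35 in the Msi1 knockdown (adjusted p = 0.036), a call lost in 8 of 14 alternatives. IKZF1 had a mean of at most 0.0125 CPM in any group.

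Other genes reported as Musashi targets did not share the direction of the members. Of 15 tested, 7 were lower and 6 higher in the Msi1 knockdown, 3 and 6 in the Msi2 knockdown and 3 and 6 in the double knockdown (medians -0.07, 0.08 and 0.14). CDKN1A, the p21 cell cycle inhibitor whose translation Musashi-1 has been reported to repress, rose from 6.07 ± 0.74 CPM in control to 13.9 ± 1.1 CPM (Msi1), 8.84 ± 0.61 CPM (Msi2) and 23.5 ± 1.3 CPM (double knockdown; log2 1.95 ± 0.10 in the last, edgeR adjusted p = 2.61e-11). LRIG1, a negative regulator of receptor tyrosine kinases including MET, and BMPR1A, a bone morphogenetic protein receptor, fell in the double knockdown by 0.83 ± 0.10 (adjusted p = 2.33e-06) and 0.74 ± 0.07 (adjusted p = 1.88e-07) on the log2 scale.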

How the data were processed

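The authors deposited estimated counts per gene as whole numbers, computed before deposit with no scaling across samples that the values show. Per the submitters' processing notes kallisto 0.42.1, CASAVA 1.4 and hg19 were used, in roles not stated, and the transcript set and the summing to genes are not given here. Counts entered edgeR 4.0.16 (R 4.3.3) as deposited. Genes passed filterByExpr (minimum count 10), libraries were scaled by TMM, and a robust quasi-likelihood fit with 4 group means and 8 residual degrees of freedom gave two-sided tests with Benjamini-Hochberg adjustment over all tested genes at 0.05. The 7 comparisons were the 6 pairs of groups and non-additivity, the double change minus the sum of the single changes. An exact permutation of 3 against 3 libraries gives no p under 0.1.

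The members, gene lists and tests were chosen with earlier results of these data known. Genes named besides the members were MSI1 and MSI2, up to 4 of each list with the largest called change against control and a mean of at least 1 CPM, fixed close relatives, and the 3 genes with the highest r to each member among those of at least 10 CPM (2 counts added before logs). Genes outside this rule are AGO2, PARD6B and PRKCI, the pluripotent stem cell genes, the genes listed at 0 and the cell type markers. A list of other RNA-binding proteins had 9 of 18 genes higher and 4 lower in the double knockdown, where 26.6% and 25.3% of all tested genes were. The library trend takes its gene weights from the leading component of deviations from group means (54.1% of their variance). A library's score applies these weights to its deviation from the mean of all libraries, so group differences enter the score. As a covariate the trend can therefore take out part of a knockdown's own change. Scripts were tested on simulated data. Alternatives were DESeq2 1.42.0, other scaling, filters and depth, fewer samples, the replicate block, the trend as a covariate and each replicate left out.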

Additional observations from a re-analysis of the deposited data

How the results depend on the processing

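Against control, MET, TSPAN3, IKZF2 and LIN28A kept direction and call in the Msi1 and double knockdown under all 14 alternatives, as did IKZF2 and LIN28A in the Msi2 knockdown. The members with the fewest counts were HMGA2 and LIN28A (8 to 47 and 6 to 61 per library), and the stricter filter removed HMGA2. In the double knockdown HMGA2 was at -0.68 by DESeq2, -0.59 thinned and -0.18 with the trend covariate (none called), and at -0.93 to -0.38 with 1 replicate left out. With the trend covariate HMGA2 was called in the Msi2 knockdown (-0.64). Leaving out 1 replicate gave HMGA2 -0.20 to 0.29 in the Msi1 knockdown, positive without control replicate 2. In the Msi2 knockdown it gave MET -0.25 to -0.20, TSPAN3 -0.24 to -0.13, 2 to 4 members called (2 without control replicate 1 or Msi2-knockdown replicate 1) and 3013 to 4249 genes called (3013 without control replicate 1, against 4545).

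Between the single knockdowns 0 members were called thinned, and 1 to 3 with a replicate left out. The trend covariate left 718 genes (of 8419) and 1 member called between double and Msi1 knockdown, 2697 genes (of 6792) between double and Msi2 knockdown and 592 genes (of 6058) for non-additivity. With a replicate left out, 2 to 3 members were called between double and Msi1 knockdown. HMGA2 reversed to 0.15 there with the trend, and against the Msi2 knockdown to 0.03 thinned and 0.46 with the trend, with -0.37 to 0.08 when a replicate was left out. For non-additivity, HMGA2 reversed to 0.20 thinned and 0.79 with the trend (-0.44 to 0.12 with a replicate left out), MET to -0.03 (-0.07 to 0.08) and LIN28A to -1.03. The causes were not tested.

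The replicate block rests on shared numbers only: 10 of 18 same-numbered pairs had correlated deviations above 0.1 (range -0.54 to 0.70), and 1 of 12 libraries correlated best with its own number. With the block, called genes went from 5907 to 6336, 4545 to 4970 and 7796 to 8175 for the Msi1, Msi2 and double shRNA groups against control. Called members stayed at 4, 4 and 5, and the block changed only TSPAN3 between double and Msi2 knockdown.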
